A study of Mus musculus with 30 samples.

Results

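The genes Itih5, Bmp6, Fgl2, Ell2, Net1 and Fyttd1 separated the lateral from the medial somatic motoneurons of the adult mouse spinal cord. Itih5, Bmp6 and Fgl2 were lower in lateral motoneurons (LMN) than in medial motoneurons (MMN), and Ell2, Net1 and Fyttd1 were higher. They were chosen because the LMN to MMN difference ran the same way in the animals, so that difference is described below without a test. The 6 genes are 6 of 8251 named genes on the array, and 11 of its 12422 tested probe sets are annotated to them. The samples came from 5 adult mice that had undergone a sham operation. From each spinal cord, motoneurons of the intermediolateral column (IML), LMN and MMN were isolated by laser capture, with 400 captures per cell type. The RNA of each pool was divided, amplified in a double protocol and hybridised to 2 Affymetrix arrays, which gave 30 arrays for 15 samples. All groups are sham-operated controls from the same animals, and the sources used here do not give the strain, the sex or an exact age.

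Motoneurons of the intermediolateral column are the preganglionic autonomic neurons, which synapse on ganglion cells outside the cord. Somatic motoneurons contact skeletal muscle: the medial column serves the muscles along the spine, and the lateral column serves the limbs. The chosen genes act at different places in a cell. Itih5 encodes a heavy chain of the inter-alpha-trypsin inhibitor family, whose members bind hyaluronan in the extracellular matrix. Bmp6 encodes a secreted bone morphogenetic protein, a ligand that signals through serine/threonine kinase receptors to SMAD proteins. Fgl2 encodes fibrinogen-like protein 2, a prothrombinase at cell surfaces that is also secreted as a regulator of immune cells. Ell2 encodes an elongation factor of RNA polymerase II, Net1 a guanine nucleotide exchange factor for small GTPases, and Fyttd1 an adaptor for the export of mRNA from the nucleus.

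The promoters of 4 of the genes are shown because the genes fall into an LMN-low and an LMN-high set, and 2 were taken from each. Each runs 5′ to 3′ on the strand of the gene from 250 bases before to 50 bases after the gene's start, as in RefSeq for GRCm38.p6. Capitals mark GGGCGG, the GC box, and CCAAT, the CCAAT box, on either strand, so that CCGCCC and ATTGG are the same motifs read from the other strand. They lie at chr2:10153293-10153592 on the plus strand (Itih5), chr5:21372423-21372722 on the plus strand (Fgl2), chr13:75707234-75707533 on the plus strand (Ell2) and chr13:3918171-3918470 on the minus strand (Net1, the first of its 2 listed promoters).
Itih5: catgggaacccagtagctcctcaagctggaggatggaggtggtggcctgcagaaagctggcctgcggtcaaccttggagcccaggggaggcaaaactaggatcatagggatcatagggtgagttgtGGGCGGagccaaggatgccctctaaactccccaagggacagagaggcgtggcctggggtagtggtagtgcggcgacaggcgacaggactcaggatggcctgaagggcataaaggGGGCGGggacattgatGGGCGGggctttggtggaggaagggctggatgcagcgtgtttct
Fgl2: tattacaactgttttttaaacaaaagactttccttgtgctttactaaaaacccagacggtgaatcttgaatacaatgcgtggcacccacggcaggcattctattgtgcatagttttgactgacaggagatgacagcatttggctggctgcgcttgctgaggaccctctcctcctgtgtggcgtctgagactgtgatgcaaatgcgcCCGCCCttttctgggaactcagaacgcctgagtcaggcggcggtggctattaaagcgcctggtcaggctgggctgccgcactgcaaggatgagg
Ell2: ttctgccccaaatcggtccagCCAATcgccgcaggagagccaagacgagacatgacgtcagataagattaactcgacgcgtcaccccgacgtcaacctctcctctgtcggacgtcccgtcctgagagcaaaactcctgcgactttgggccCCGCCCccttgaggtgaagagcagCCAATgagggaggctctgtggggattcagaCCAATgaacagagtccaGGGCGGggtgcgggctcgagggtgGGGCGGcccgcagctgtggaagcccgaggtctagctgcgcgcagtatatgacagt
Net1: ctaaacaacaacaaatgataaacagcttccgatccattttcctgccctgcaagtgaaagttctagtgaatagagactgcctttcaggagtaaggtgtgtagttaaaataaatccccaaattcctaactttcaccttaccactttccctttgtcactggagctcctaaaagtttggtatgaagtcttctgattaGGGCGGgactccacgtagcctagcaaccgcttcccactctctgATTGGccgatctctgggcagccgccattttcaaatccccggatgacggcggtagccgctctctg
All 6 genes had a promoter in the table. GGGCGG occurred at least once in each of the 7 promoters of the 6 genes, and in 35.7% of all 32851 promoters of the same length. CCAAT matched in Ell2 (3 times), in the first promoter of Net1 and in Fyttd1, and had no match in these windows of Itih5, Bmp6 and Fgl2, while 37.4% of all promoters held it. TATAAA and TAATTA matched in none of the 7 windows, against 13.6% and 5.29% of all promoters. The GC content ran from 47.3% (Net1, first promoter) to 72% (Fyttd1), with a median of 52.7% over all promoters. Bmp6, Ell2 and Net1 all lie on chromosome 13, which holds 4.76% of the 27025 genes of the table, and the closest starts among these 3 genes are 34.4 megabases apart. These matches describe the letters in the windows and were not set against the expression values.

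Of the motoneuron markers checked, Nefh and Prph were bright in each captured pool, while Slc18a3 in IML was close to the median probe set. On the log2 intensity scale, Slc18a3, the vesicular acetylcholine transporter, averaged 7.18 ± 0.28 in IML, 8.73 ± 1.17 in LMN and 8.30 ± 1.01 in MMN (SD, n = 5 animals). Nefh, the heavy neurofilament chain, averaged 11.56 ± 0.28 in IML, 12.58 ± 0.36 in LMN and 12.20 ± 0.25 in MMN. Prph, peripherin, averaged 9.75 ± 1.00 in IML, 10.33 ± 1.37 in LMN and 10.37 ± 0.77 in MMN, while Isl1, a motoneuron transcription factor, was dim in every pool at 5.74, 5.61 and 5.59. The LMN sample of animal 2 had the lowest LMN values of Slc18a3 (7.12) and Prph (8.19), so counts below are also given without it. The median probe set averaged 7.10 over the 15 samples.

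Itih5 was the gene with the widest LMN to MMN difference of the 6, and its level was highest in IML. Its brighter probe set (104445_at) read 9.29, 10.04, 9.35, 9.00 and 10.18 log2 units in IML of animals 1 to 5. In LMN it read 7.61, 9.05, 7.80, 7.46 and 8.30. In MMN it read 8.90, 10.19, 8.57, 8.15 and 9.39. Within each animal LMN was the lowest pool, although the LMN and MMN ranges overlapped because the animals differed. The means were 9.57 ± 0.51 in IML, 8.04 ± 0.64 in LMN and 9.04 ± 0.79 in MMN (SD, n = 5), and LMN less MMN was -0.997 ± 0.135 log2 units (SE), or 0.501 times the MMN level.

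Bmp6, the secreted ligand, had the same order of pools. Its brighter probe set (161028_at) read 7.20, 8.11, 6.93, 6.61 and 7.48 in IML of animals 1 to 5. LMN read 6.36, 7.22, 5.94, 6.04 and 6.55, and MMN read 7.04, 8.07, 6.67, 6.32 and 7.22. LMN lay below MMN in each animal, by 0.28 (animal 4) to 0.84 (animal 2), and the ranges of the pools overlapped. LMN less MMN was -0.64 ± 0.07 (SE). The second probe set (92372_at), which is dimmer, averaged 6.07 ± 0.34 in IML, 5.63 ± 0.31 in LMN and 6.01 ± 0.41 in MMN, with LMN less MMN at -0.38 ± 0.06 and below 0 in 5 of 5 animals.

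Fgl2, the prothrombinase, followed the same order. Its brighter probe set (97949_at) read 6.14, 7.56, 6.84, 6.01 and 7.42 in IML of animals 1 to 5. LMN read 5.21, 6.64, 4.98, 5.01 and 5.60, and MMN read 5.90, 7.61, 6.18, 5.42 and 6.85. LMN was the lowest pool in each animal, and the gap to MMN was widest in animal 5 (1.25) and narrowest in animal 4 (0.41). LMN less MMN was -0.90 ± 0.15 (SE). In LMN the linear intensity was 37.06, 31.45 and 32.22 in animals 1, 3 and 4, close to the floor of 32 used as an alternative. The background is not known, so the size of the gap is uncertain. With that floor LMN less MMN was -0.89. Animal 2 was the highest animal in every pool for this probe set and for both of Bmp6.

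Ell2, the elongation factor, was brightest in LMN. Its probe set 103891_i_at read 9.30, 9.36, 10.09, 9.91 and 10.14 in IML of animals 1 to 5. LMN read 9.70, 9.70, 10.21, 10.50 and 10.66, and MMN read 9.00, 9.49, 9.88, 9.52 and 10.06. LMN was the highest pool in each animal, by 0.21 (animal 2) to 0.98 (animal 4) over MMN, with overlapping ranges. LMN less MMN was 0.56 ± 0.10 (SE), a fold of 1.48. The related probe set 103892_r_at averaged 7.37 ± 0.21 in IML, 7.82 ± 0.43 in LMN and 7.29 ± 0.35 in MMN, with LMN less MMN at 0.53 ± 0.12 and above 0 in 5 of 5 animals, the smallest being 0.04.

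Net1, the exchange factor, was measured by 94223_at alone. It read 5.52, 5.83, 6.34, 6.04 and 6.75 in IML of animals 1 to 5. LMN read 6.72, 6.32, 6.79, 6.81 and 7.36, and MMN read 5.78, 6.14, 6.32, 5.99 and 6.74. LMN was the highest pool in each animal, and the gap to MMN was narrowest in animal 2 (0.18). LMN less MMN was 0.60 ± 0.11 (SE), a fold of 1.52.

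Fyttd1, the export adaptor, had the smallest LMN to MMN difference among the brightest probe sets of the 6 genes. Its probe set 102427_at read 9.33, 10.18, 10.10, 9.58 and 10.49 in IML of animals 1 to 5. LMN read 9.71, 10.48, 10.45, 10.06 and 10.65, and MMN read 9.23, 10.06, 10.22, 9.59 and 10.45. LMN was the highest pool in each animal, by 0.20 to 0.48 over MMN, a gap narrower than the spread between animals. LMN less MMN was 0.36 ± 0.06 (SE), a fold of 1.28. Animal 5 was the highest animal in every pool for Fyttd1, Net1 and the brighter Ell2 probe set.

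**Figure D1:**
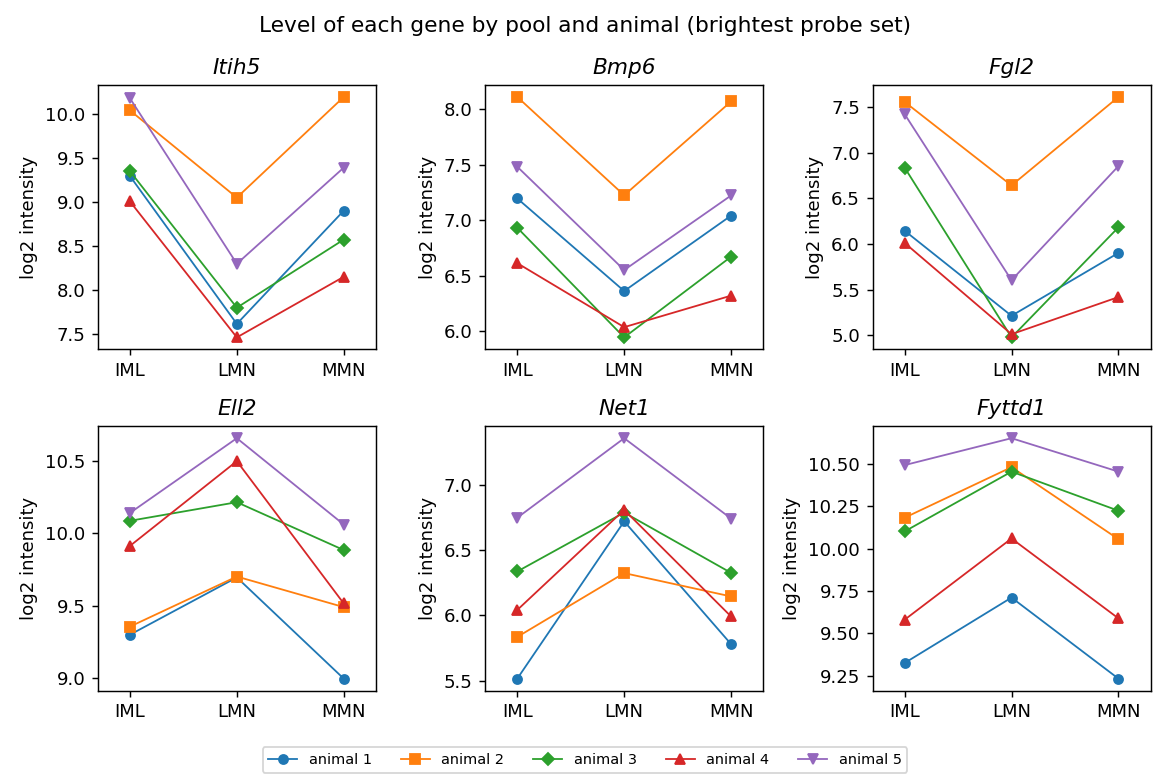
Level of the brightest probe set of each gene, in log2 intensity, in IML, LMN and MMN, with a line for each of the 5 animals. The lines of Itih5, Bmp6 and Fgl2 dip at LMN, and those of Ell2, Net1 and Fyttd1 peak there, in all 5 animals.

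The remaining probe sets of these genes were dim, and their LMN to MMN differences were small. Itih5 161813_i_at averaged 4.37 in IML, 4.29 in LMN and 4.38 in MMN, with LMN less MMN at -0.09 ± 0.09. Fgl2 162289_at had LMN less MMN at -0.11 ± 0.05, below 0 in 5 of 5 animals (-0.19 to -0.01), and all of its values lay under an intensity of 32. Ell2 97704_at had LMN less MMN at -0.04 ± 0.06, above 0 in 3 animals and below 0 in 2. In all, 9 of the 11 probe sets had the same sign in 5 of 5 animals. Over all 12422 probe sets the share with the same sign in 5 of 5 animals was 14.7%, from which nothing is read here, since the genes were chosen on this difference.

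**Figure D2:**
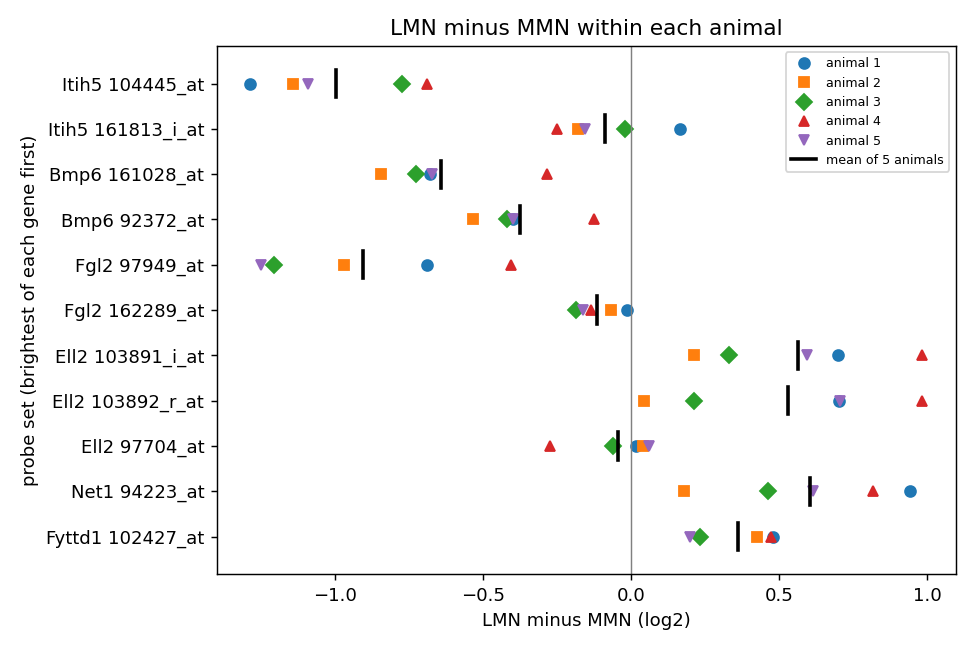
LMN less MMN in log2 units for each of the 11 probe sets, with a point for each of the 5 animals and a bar at the mean. The brightest probe set of each gene lies wholly on 1 side of 0, while Itih5 161813_i_at and Ell2 97704_at cross it.

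The 2 arrays hybridised from each sample gave the LMN to MMN difference separately. With the first set of arrays Itih5 was at -1.10, and with the second at -0.89. Bmp6 161028_at was at -0.63 and -0.66, and Fgl2 97949_at at -1.005 and -0.805. Each of these LMN-low genes kept its sign in both sets. Ell2 103891_i_at was at 0.46 and 0.66, Net1 at 0.65 and 0.56, and Fyttd1 at 0.28 and 0.44. The technical SD between the arrays of a sample was 0.384 for Fyttd1, against a median of 0.132 over all probe sets. For Fyttd1 the widest gap lay between 8.83 and 10.33 in IML of animal 4, and with the first set of arrays its LMN to MMN sign was the same in 4 of the 5 animals. For the brightest probe sets of the other genes the technical SD was between 0.127 (Bmp6) and 0.228 (Itih5).

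**Figure D3:**
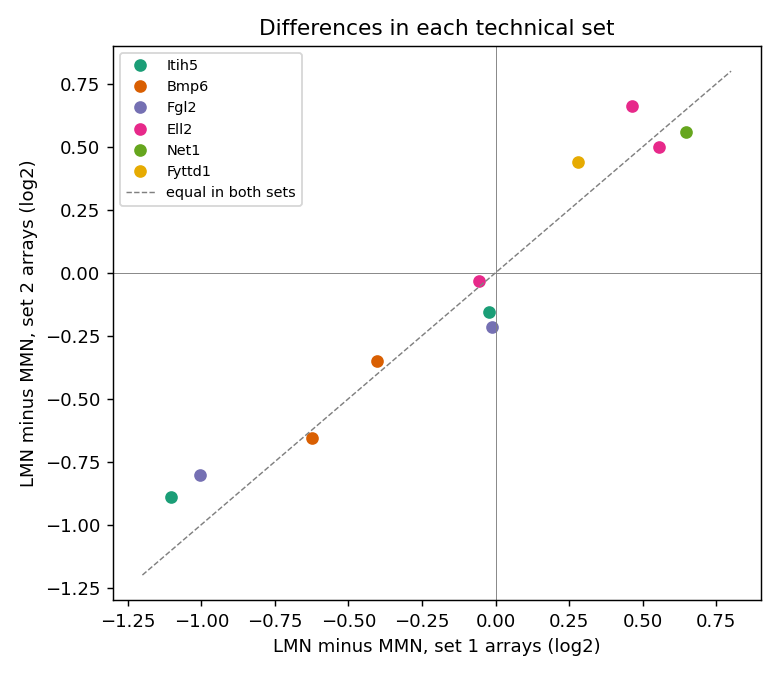
Mean LMN less MMN in log2 units from the first set of arrays (horizontal axis) against the second set (vertical axis), with a point for each of the 11 probe sets coloured by gene and a dashed line where both are equal. All 11 points have the same sign in both sets, and the dim probe sets of Itih5, Fgl2 and Ell2 lie near 0.

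The level of IML against the mean of the somatic pools was not what the genes were chosen on. For this, IML was set against the averaged somatic pools within animals, using limma with the animal as a block. Itih5 was higher in IML by 1.03 ± 0.12 log2 units (SE), a fold of 2.04 (adjusted p = 0.00112, higher in 5 of 5 animals). Bmp6 161028_at was higher by 0.52 ± 0.06, a fold of 1.44 (adjusted p = 0.00179, 5 of 5 animals), and 92372_at by 0.25 ± 0.05, a fold of 1.19 (adjusted p = 0.0222, 5 of 5 animals). Fgl2 97949_at was higher by 0.85 ± 0.13, a fold of 1.81 (adjusted p = 0.00650, 5 of 5 animals). Net1 was lower in IML at -0.40 ± 0.09, a fold of 0.756 (adjusted p = 0.0317, lower in 5 of 5 animals). Thus 5 of the 11 probe sets, from 4 of the 6 genes, passed the test. Of these 4 were higher in IML, a direction taken by 3.44% of all 12422 probe sets, and 1 was lower, as were 2.09% of all. In bulk captures, fewer cells of a type and less RNA per cell cannot be told apart. The contrast uses the mean of LMN and MMN and not their difference. Both share 1 estimate of the spread, and genes with a steady LMN to MMN difference have a small one. It also departs from 0 where IML lies near MMN and LMN alone stands apart. IML less MMN was -0.10 ± 0.11 (SE) for Net1 and 0.06 ± 0.06 for Bmp6 92372_at, so these calls do not set IML apart from MMN. It was 0.53 ± 0.14 for Itih5, 0.20 ± 0.07 for Bmp6 161028_at and 0.40 ± 0.15 for Fgl2 97949_at.

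Ell2 and Fyttd1 did not pass the test. Ell2 103891_i_at was at -0.11 ± 0.08 (adjusted p = 0.513) and 103892_r_at at -0.19 ± 0.11 (adjusted p = 0.366). Fyttd1 was at -0.15 ± 0.05 (adjusted p = 0.102), below 0 in 5 of 5 animals, with -0.34 from the first set of arrays and 0.03 from the second. The dim probe sets of Itih5, Fgl2 and Ell2 also missed it, at 0.03 ± 0.08 (adjusted p = 0.898), -0.06 ± 0.04 (adjusted p = 0.459) and -0.01 ± 0.06 (adjusted p = 0.930). The calls rested on pairing within animals: without the block none of the 5 probe sets passed, with adjusted p of 0.195 for Itih5, 0.596 and 0.770 for Bmp6, 0.413 for Fgl2 and 0.529 for Net1. Net1 also missed the threshold under 7 further alternatives, among them leaving out animal 1 (adjusted p = 0.0669), 3 (0.0842), 4 (0.0805) or 5 (0.102), and Bmp6 92372_at missed it under 5 further ones.

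IML lay above LMN for the LMN-low genes and below it for the LMN-high genes. The values of IML against each somatic pool share a pool with the difference that chose the genes and have no test. For Itih5, IML less LMN was 1.53 ± 0.14 (SE) and IML less MMN 0.53 ± 0.14, so the order was IML, MMN, LMN, with IML below MMN in animal 2 alone. For Bmp6 161028_at the values were 0.84 ± 0.07 and 0.20 ± 0.07, with IML highest in each animal. Its second probe set, 92372_at, was at 0.44 ± 0.06 and 0.06 ± 0.06, with IML below MMN in animals 1 and 2. For Fgl2 97949_at they were 1.31 ± 0.15 and 0.40 ± 0.15, with IML above MMN in 4 of 5 animals. The LMN-high genes had IML near MMN instead: Ell2 103891_i_at was at -0.39 ± 0.10 against LMN and 0.17 ± 0.10 against MMN. Net1 was at -0.70 ± 0.11 against LMN and -0.10 ± 0.11 against MMN, and Fyttd1 at -0.34 ± 0.06 and 0.03 ± 0.06. For Ell2, Net1 and Fyttd1 the mean difference between IML and MMN was smaller than the SD of that difference over the 5 animals. IML was above MMN in 4 of 5 animals for Ell2 103891_i_at and in 3 of 5 for Net1 and for Fyttd1. The order of IML and MMN was not tested.

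**Figure D4:**
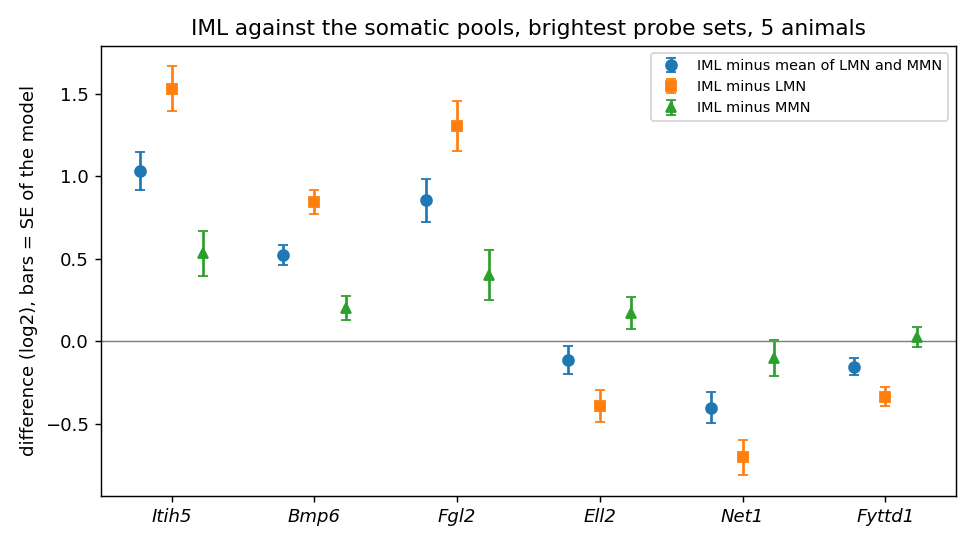
Difference of IML from the averaged somatic pools, from LMN and from MMN, in log2 units with the SE of the model, for the brightest probe set of each of the 6 genes over 5 animals. Itih5, Bmp6 and Fgl2 lie above 0 in all 3 comparisons, while Ell2, Net1 and Fyttd1 lie below 0 against LMN and nearer to 0 against MMN.

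Among the marker lists of other cell types, the summed intensity of several was lower in LMN than in MMN in 5 of 5 animals. These were the lists of meninges and fibroblasts, endothelium and mural cells, and astrocytes. The LMN-low genes were lower in LMN as well. The summed intensity of 12 meningeal and fibroblast markers was 21535 to 29372 in IML (median 24582), 8005 to 20471 in LMN (median 10826) and 10278 to 32418 in MMN (median 18374). It was lower in LMN than in MMN in 5 of 5 animals, and higher in IML than in both somatic pools in 4. Of these 12 markers, 12 had a negative LMN less MMN difference, with a median of -0.63, and none passed the adjusted threshold in limma (8 had an unadjusted p under 0.05). Between IML and the somatic pools 5 of the 12 were called higher, with a median of 0.88. The 13 endothelial and mural markers summed to 1738 to 4698 in IML, 1384 to 2476 in LMN and 1781 to 4661 in MMN, and LMN was below MMN in 5 of 5 animals. The sum of the 9 astrocyte markers was also lower in LMN than in MMN in 5 of 5 animals. That of the 14 microglia and macrophage markers was lower in 3 of 5. By gene, the LMN less MMN difference was negative for 6 of the 9 astrocyte and 10 of the 13 endothelial and mural markers. It was positive for 3 of each. Astrocyte and microglia and macrophage sums were each higher in IML than in both somatic pools in 5 of 5 animals. Called higher in IML were 6 of the 14 microglia and macrophage and 1 of the 9 astrocyte markers, against 3.44% of all probe sets. Other lists were mixed: oligodendrocyte and excitatory interneuron sums were each lower in LMN than in MMN in 3 of 5 animals. The sum of 2 red blood cell markers was lower in LMN than in MMN in 4 of 5 animals (median ratio 0.747). Red blood cell and oligodendrocyte sums were each higher in IML than in both somatic pools in 4 of 5 animals. The sum of 6 inhibitory interneuron markers was higher in LMN than in MMN in 3 of 5 animals (median ratio 1.02), and the median ratio of IML to the somatic pools was 0.759. By gene, LMN less MMN was negative for 4 of these 6 markers and positive for 2. In limma 3 of the 6 had an unadjusted p under 0.05, against 11.6% of all probe sets, and 0 passed the adjusted threshold. None of these lists had a marker at 0 in any pool, but no array held a value of 0, so this does not show detection. The part of these cell types in the values of Itih5, Bmp6 and Fgl2 was not tested.

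The motoneuron markers moved with the LMN-high genes. The summed intensity of 8 such markers was 5882 to 9205 in IML, 10973 to 20136 in LMN and 9331 to 14806 in MMN. It was higher in LMN than in MMN in 5 of 5 animals, with a median ratio of 1.24, and lower in IML than in both in 5 of 5. Of the 8, 7 had a positive LMN less MMN difference, with a median of 0.23. Between IML and the somatic pools 3 of the 8 were called lower by limma, against 2.09% of all probe sets, and 5 were not called. The 3 were Nefh at -0.83 ± 0.09 (adjusted p = 0.00105), and Ret (adjusted p = 0.0206) and Nefl (adjusted p = 0.0431), both named after their values were seen. Isl1, not called, was on the other side of 0 at 0.14. The part of motoneuron content in the values of Ell2, Net1 and Fyttd1 was not tested.

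**Figure D5:**
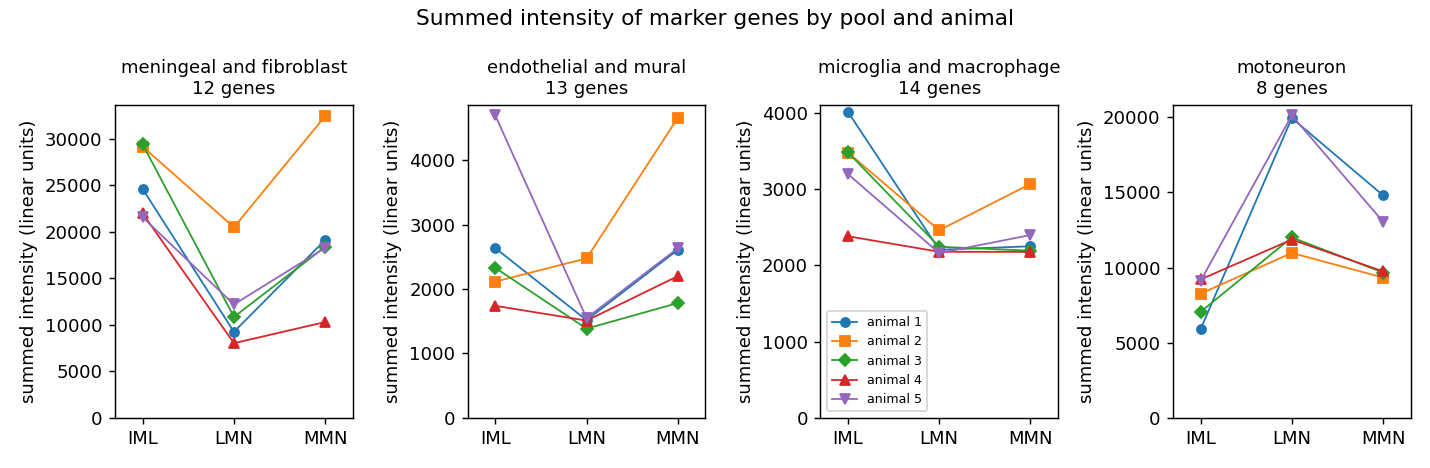
Summed linear intensity of the markers of meninges and fibroblasts, endothelium and mural cells, microglia and macrophages, and motoneurons in IML, LMN and MMN, with a line for each of the 5 animals. Meningeal and fibroblast sums are lower in LMN than in MMN in all 5 animals, and motoneuron sums are higher.

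The other genes of the members' pathways were read from lists chosen with earlier results known. Between LMN and MMN, 0 genes of the 6 lists described here were called by limma, against 7 called of 12422 probe sets (0.0564%). At an unadjusted p under 0.05 there were 5 of 32 genes of BMP signalling, 4 of 20 of hyaluronan matrix, 4 of 20 of fibrinogen domains and clotting, 2 of 22 of transcription elongation, 2 of 20 of mRNA export and 3 of 15 of motor column identity. Over all 12422 probe sets this share was 11.6%. The list medians lay between -0.09 (clotting) and 0.05 (hyaluronan), against 0.02 over all probe sets. The gene with the smallest p in each list did not pass. Eng, a coreceptor for BMP ligands, was at -0.55 ± 0.15 (adjusted p = 0.203), and Tfpi, the inhibitor of the tissue factor pathway, at -0.73 ± 0.17 (adjusted p = 0.155). Itih2, another heavy chain of the Itih5 family, was at -0.34 ± 0.08 (adjusted p = 0.165). Cdc73, a subunit of the PAF1 elongation complex, was at 0.27 ± 0.11 (adjusted p = 0.359), and Rbm8a, a core of the exon junction complex, at -0.26 ± 0.07 (adjusted p = 0.201). Aldh1a2, the retinoic acid synthesising enzyme of lateral column motoneurons in the embryo, was at -0.32 ± 0.07 (adjusted p = 0.126), and is also counted among the 12 meningeal and fibroblast markers.

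Between IML and the somatic pools, 10 genes of these 6 lists were called, all higher in IML. That direction was called for 3.44% of all probe sets (2.09% were called lower). These shares include dim probe sets, while each list gene was read from its brightest one, so the shares are not matched to the lists. BMP signalling had 4 of 32 measured genes called: Twsg1, an extracellular binder of BMP ligands, was higher by 0.61 ± 0.10 (adjusted p = 0.00939). Acvr2a, a type II receptor, was higher by 0.52 ± 0.09 (adjusted p = 0.00958), and Id4, a target of BMP signals, by 0.36 ± 0.07 (adjusted p = 0.0203). Id3, another target, passed too (adjusted p = 0.0352) and is named after its values were seen. Clotting had 4 of 20: Angpt2, a ligand with a fibrinogen domain, was higher by 0.56 ± 0.09 (adjusted p = 0.00756), and F2r, the thrombin receptor, by 0.93 ± 0.16 (adjusted p = 0.00966). Tnc, tenascin C, was higher by 0.58 ± 0.13 (adjusted p = 0.0243), and Tfpi, named after its values were seen, was the fourth (adjusted p = 0.0246). Hyaluronan matrix had 2 of 20, which were Stab1 at 0.48 ± 0.10 (adjusted p = 0.0205) and Lyve1, a hyaluronan receptor, at 0.39 ± 0.08 (adjusted p = 0.0242).

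The remaining lists had no calls in this contrast, in which 20.7% of all probe sets had an unadjusted p under 0.05. Transcription elongation had 0 of 22 by limma (2 at an unadjusted p under 0.05), and its lowest p was that of Eloc, a subunit of elongin, at -0.23 ± 0.08 (adjusted p = 0.120). Messenger RNA export had 0 of 20 (4 unadjusted), led by the splicing factor Srsf3 at 0.34 ± 0.10 (adjusted p = 0.0788). Motor column identity had 0 of 15 (4 unadjusted), led by Lhx3, a homeodomain factor of medial column motoneurons, at -0.16 ± 0.04 (adjusted p = 0.0509). The medians of the 6 lists ran from -0.03 to 0.13, against -0.01 over all probe sets. The counts describe the lists, and no test set them against other genes.

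Within animals the 6 genes formed 2 sets. After each animal's mean was removed, the correlation over the 15 samples was 0.960 between Itih5 and Bmp6, 0.955 between Itih5 and Fgl2 and 0.966 between Bmp6 and Fgl2. It was 0.853 between Ell2 and Net1, 0.826 between Ell2 and Fyttd1 and 0.861 between Net1 and Fyttd1. Across the sets it lay between -0.852 and -0.601. The samples share 5 animals and the genes were chosen on this pattern, so these values are a description.

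The same measure was taken over 5611 candidate probe sets, those with 1 gene symbol and a mean at or above the median of 7.10. The probe sets of Bmp6, Fgl2 and Net1 were too dim to be candidates. Among the candidates, the genes most like Itih5 were Eef1a1 (0.968), a translation elongation factor, Rell1 (0.965) and Fkbp9 (0.964), a prolyl isomerase of the endoplasmic reticulum. Of the candidates, Bmp6 was most like Itih5 (0.960), then Wls (0.946), which carries Wnt proteins to the cell surface, and Vps54 (0.946), a vesicle tether. Fgl2 was most like the candidates Itih5 (0.955), Rell1 (0.954) and Vamp5 (0.952), a SNARE protein. The value between Bmp6 and Fgl2 themselves was higher, at 0.966. Itih5 and Rell1 recurred among these neighbours, but of Itih5, Bmp6 and Fgl2 only Itih5 was a candidate, so nothing is read from its recurrence. Ell2 was most like Ppp1cb (0.908), a phosphatase subunit, Ube2d3 (0.906), a ubiquitin-conjugating enzyme, and C1d (0.893). Net1 was most like Impa1 (0.941), an inositol monophosphatase, Azin1 (0.931), an antizyme inhibitor, and Psmc6 (0.926), a proteasome ATPase. Fyttd1 was most like Rab2a (0.960), a GTPase of vesicle traffic, Glrb (0.955), the beta subunit of the glycine receptor, and Dld (0.945), a mitochondrial dehydrogenase.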

How the data were processed

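The deposited table holds linear intensity values of 30 Affymetrix arrays. Per the labels, the authors used R-pack for normalization and provided inverse logs; the sources used here do not name the method or its version. Detection calls were not used, so a dim probe set cannot be set against background. Array medians ran from 131.69 to 145.908, and the number of arrays limits the precision. The 66 control probe sets were left out.

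After log2 transformation without an offset, the 2 arrays of a sample were averaged. limma 3.58.1 in R 4.3.3 was fitted to 12422 probe sets over 15 samples, with pool and animal as fixed terms, then eBayes. Tests were two-sided, and p-values were adjusted by Benjamini-Hochberg across the 12422 probe sets, with calls at 0.05. Each animal gave all pools, per the labels. Samples of the same animal deviated together in 15 of 15 pairs (lowest correlation 0.288). The fit was tested on simulated data.

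Members and gene lists were chosen with earlier results of these data known. Named were the 6 genes with every probe set and, among candidates at or above the median mean, the 3 genes most like each. Also named were up to 3 called genes per pathway list and contrast (otherwise the gene with the smallest p), and 4 motoneuron markers. The results of 1 of the 7 pathway lists are not reported here. Gene symbols came from the platform annotation, updated through gene identifiers, and a list gene was read from its probe set with the highest mean. Shares over all probe sets include dim ones, so they are not matched to the list genes. Alternatives were quantile normalization, arrays centred on the median, trended and robust variance, no block, a random block, each array set alone, an intensity floor of 32, leaving out dim probe sets, and leaving out each animal or the LMN sample of animal 2.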

Additional observations from a re-analysis of the deposited data

Results flagged for a closer look

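Of 55 groups of 5 values tested for an extreme sample, 1 had one. The dimmer Bmp6 probe set (92372_at) read 6.16 log2 units in LMN of animal 2, against 5.39 to 5.57 in LMN of the other animals, and the gap was 0.774 of the group's range. Chance alone gives about 1 such value in 20 groups. In the same animal, IML read 6.65 and MMN 6.70, also the highest values of their pools.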

How the results depend on the processing

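The LMN to MMN differences of the 6 brightest probe sets kept their sign under every alternative run, from -1.10 to -0.89 for Itih5, -0.73 to -0.59 for Bmp6, -1.03 to -0.80 for Fgl2, 0.46 to 0.66 for Ell2, 0.52 to 0.71 for Net1 and 0.28 to 0.44 for Fyttd1. Between IML and the somatic pools 686 probe sets were called, with 12 genes over all 7 pathway lists and 5 of the genes' own probe sets; between LMN and MMN 7 were called. With no replicate block these counts were 46, 1, 0 and 0, so they rest on the paired design. A random block gave 3 of the genes' own probe sets and 4 between LMN and MMN. The first array set alone gave 304, 5 and 3 between IML and somatic pools, and the second gave 3 between LMN and MMN. A floor of 32 gave 282 and 5 list genes. Leaving out dim probe sets gave 7 list genes, 1 own probe set (4 of the 5 called were not tested there) and 4 between LMN and MMN. Leaving out each animal gave 164 to 650 (386 without animal 1, 169 without 3, 397 without 4 and 164 without 5), 3 to 9 list genes, 3 to 5 own probe sets and 0 to 5 between LMN and MMN. Without the LMN sample of animal 2 the counts were 529, 10, 5 and 10. List calls between LMN and MMN stayed at 0 in all 15 alternatives. Itih5, Bmp6 161028_at and Fgl2 97949_at lost their call only with no block, among the alternatives that tested them. The cause of these changes was not tested, apart from the probe sets not tested. Dim probe sets have no measured background here, which limits Bmp6, Fgl2 and Net1 most.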
